A study of Mus musculus with 12 samples.

Results

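The genes described here make, sense, store and export cholesterol in C8-D1A, a clonal mouse astrocyte line. They are 31 named genes, listed for their roles in the pathway with earlier results of these data known, and all 31 were found among the 21959 genes of the expression table. They comprise 19 enzymes of cholesterol and isoprenoid synthesis, the sterol carrier Stard4 and 5 genes of the SREBP system that senses sterols. The other 6 serve sterol export, uptake control and esterification. Among the 19 is Ggps1, whose product, geranylgeranyl diphosphate, is used to anchor proteins in membranes.

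The cells were grown for 24 h in 1 of 4 ways, with 3 RNA-seq libraries each. They were kept under 15% CO2, with 20 mM lactic acid, or in a low-NaHCO3 medium with 0.2 g/L of NaHCO3; control cells stood at 37 °C under 5% CO2. All groups are the same line, with no genetic change named in the labels. The labels give neither a pH nor whether replicate libraries came from separate cultures, so p-values measure only the spread between these libraries, which may be technical. Levels are in TPM, transcripts per 1000000, which correct for transcript length and are shares of a library.

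The control 1 library stands apart from the other 11 and the counts of calls against control and the changes of the 31 genes called against control are given with it and without it. Markers of brain tissue were high in it. Its neuronal markers summed to 2328 TPM, against 92.3 to 145 TPM elsewhere, and its myelin markers to 1035 TPM, against 35.2 to 77.2 TPM elsewhere. All 8 neuronal, 7 myelin, 6 microglial and 5 endothelial or red cell markers were highest there, and the microglial genes P2ry12, C1qa and C1qb were listed at 0 in the 11 others. The astrocyte label was checked as well. Of 7 markers of mature astrocytes, Gfap, Aqp4, Slc1a2, Slc1a3, Aldh1l1 and Gja1 stayed at or below 1.19 TPM in those 11 libraries, S100b ran at 33.5 to 49.8 TPM, and all 7 were highest in control 1. In the same 11 libraries Vim, Sox9 and Nes summed to 1996 to 3211 TPM. Of the 31 sterol genes, 7 had their highest level in control 1 (Hmgcs1, Pmvk, Ggps1, Scap, Nr1h3, Abca1 and Abcg1) and 4 their lowest (Dhcr7, Insig2, Nr1h2 and Soat1). What the brain transcripts contribute to these values was not tested.

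Cholesterol is built from acetyl-CoA by way of mevalonate, isoprenoid diphosphates, squalene and lanosterol. When sterols in the endoplasmic reticulum run low, the escort protein SCAP carries SREBP to the Golgi, where it is cleaved, and the released factor switches on the enzymes of synthesis; when sterols are plentiful, INSIG proteins hold SCAP back. Oxysterols activate the LXR receptors, which switch on export pumps. In the brain, astrocytes are known as a main source of cholesterol for neurons.

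Of the 19 enzymes of synthesis, limma called 14 lower in low-NaHCO3 cells than in control cells, 7 lower in lactic acid cells and 2 lower in 15% CO2 cells (13, 12 and 10 without control 1). In the same order 35.0%, 1.52% and 0.0649% of all genes tested were called lower (40.9%, 7.08% and 1.56% without control 1). A gene was called changed when limma's adjusted p was under 0.05. In the fit of 12 libraries 30 of the 31 genes passed the filter on low values (at least 1 TPM in at least 3 libraries), and Abcg1 did not. Without control 1, 29 passed, and Nr1h3 fell out too.

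Under 15% CO2, against control, Lss and Cyp51 fell and none rose, 2 of 30 genes, while 0.0649% of all 12326 genes tested fell and 1.28% rose. At an unadjusted p under 0.05, 16 of the 30 were lower and 2 higher, beside 1908 of all 12326 genes in either direction. Without control 1, 11 of 29 fell and Abca1 rose, beside 1.56% and 5.82% of all genes. The median log2 change of the 30 genes was −0.28, beside 0.01 for all genes, and without control 1 it was −0.35, beside 0.03. Both calls were lost when any of the 3 CO2 libraries or control 2 was left out, where 13 to 16 genes had an unadjusted p under 0.05. The unadjusted count over all genes is not given for those fits.

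With lactic acid, against control, 8 of 30 genes fell: Acat2, Hmgcs1, Idi1, Sqle, Lss, Cyp51, Sc5d and Insig1. None rose by limma. At an unadjusted p under 0.05, 20 were lower and 0 higher, beside 2832 of all 12326 genes in either direction. By adjusted p 1.52% of all genes tested fell and 2.47% rose. Without control 1, 15 of 29 fell and Abca1 rose, beside 7.08% and 9.05% of all genes. The median log2 change was −0.45, beside −0.04 for all genes, and without control 1 it was −0.52, beside 0.00. When only the treated and control libraries of a comparison entered limma, 0 of 29 genes were called for either treatment, with 14 (15% CO2) and 18 (lactic acid) at an unadjusted p under 0.05, all lower. The unadjusted count over all genes is not given for these fits.

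In low-NaHCO3 medium, against control, 18 of 30 genes fell and 2 rose, Insig2 and Soat1. Here the background was high, with 35.0% of all genes called lower and 19.8% higher. Without control 1, 18 of 29 fell and 3 rose, beside 40.9% and 22.7% of all genes. The median log2 change of the genes was −0.63, but that of all genes was −0.20 (−0.54 and −0.17 without control 1), a shift that other scalings removed: after median-of-ratios scaling of the columns the medians were −0.44 and −0.01, and after quantile normalization −0.41 and 0.01. The calls then split into 15 lower and 5 higher, or 13 and 3, in place of 18 and 2, while 26.5% of all genes were lower and 29.0% higher after the first and 22.0% and 25.0% after the second. Without control 1 the genes split into 15 and 5, or 15 and 4, in place of 18 and 3, beside 31.9% and 33.4%, or 31.5% and 29.1%, of all genes.

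**Figure D1:**
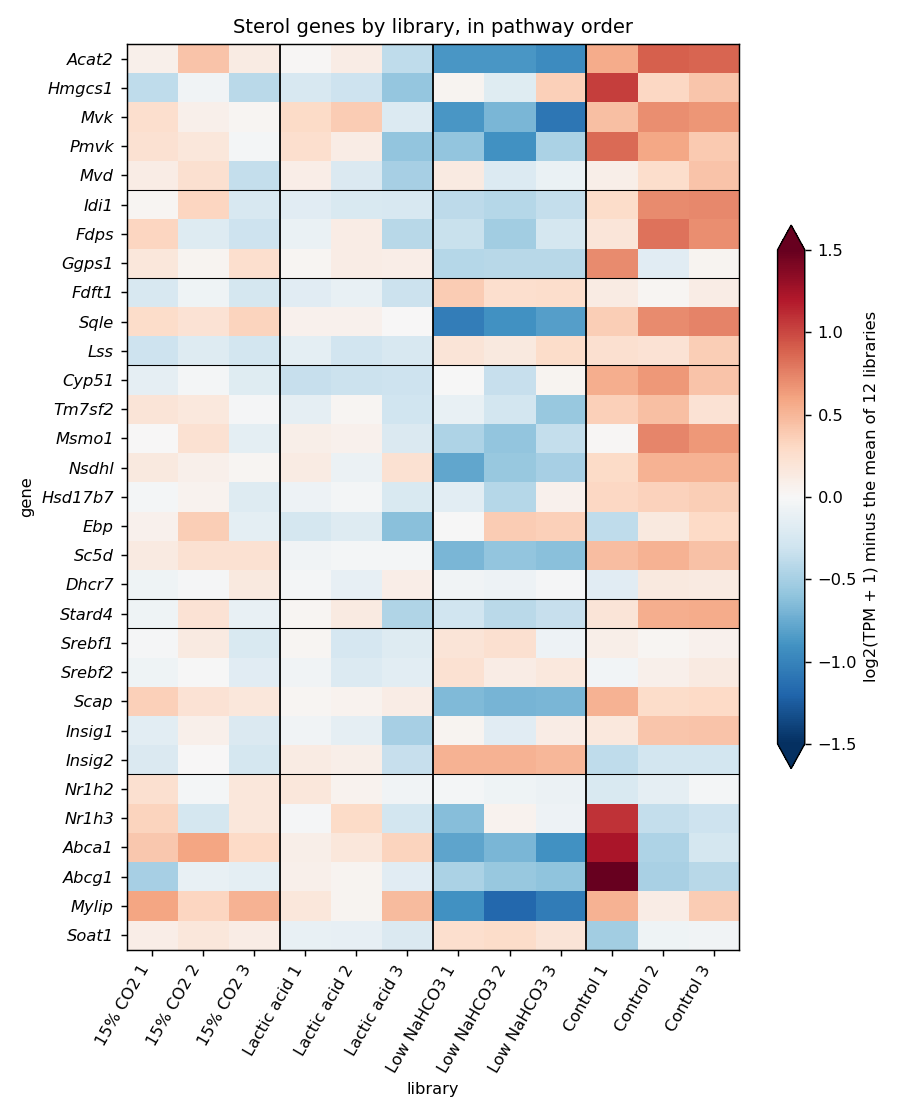
Level of each of the 31 genes in each of the 12 libraries, as log2(TPM + 1) minus the gene's mean over the 12 (red, higher; blue, lower), in pathway order from top to bottom with lines between the roles. The low-NaHCO3 columns are blue for genes such as Acat2, Mvk, Sqle, Sc5d, Scap, Abca1 and Mylip and red for Insig2. Control 1 stands alone in red for Abcg1, which had 16.7 TPM there.

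With 12 libraries Cyp51 was the 1 gene called lower in all 3 treatments, though its call under 15% CO2 was lost with the replicate number as a block and when only the 2 groups entered limma. Without control 1 there were 9: Acat2, Idi1, Fdps, Sqle, Cyp51, Msmo1, Nsdhl, Sc5d and Insig1. The 3 comparisons use the same control libraries.

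**Figure D2:**
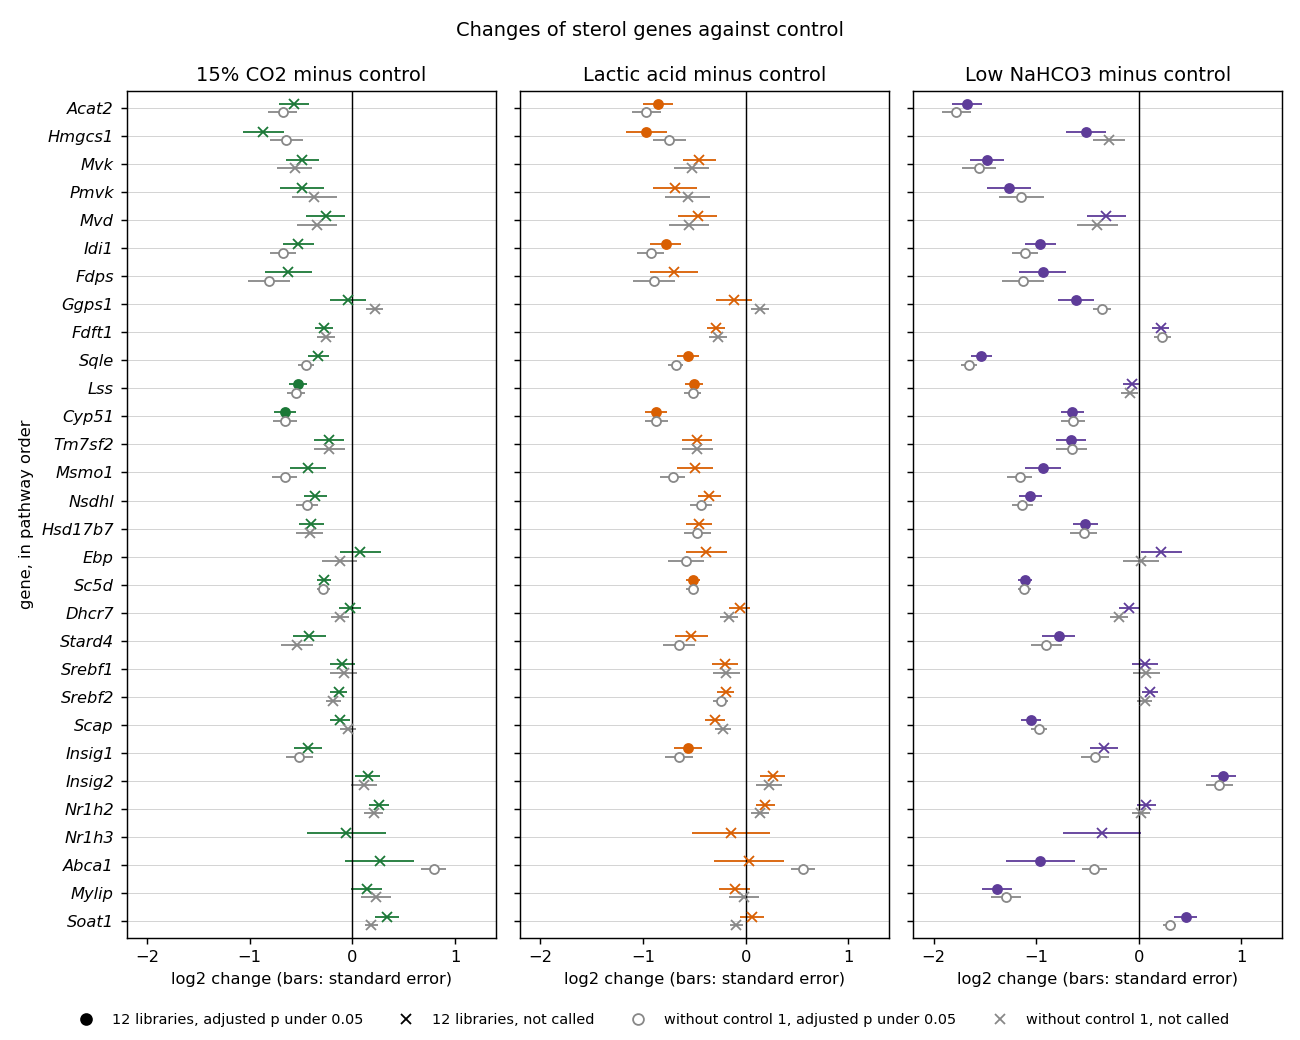
Log2 change of each gene tested against control under 15% CO2 (left panel), lactic acid (middle panel) and low NaHCO3 (right panel), with standard errors, from limma with 12 libraries (colour) and without control 1 (grey); circles passed the threshold and crosses did not. Most points lie left of 0 for the enzymes at the top, and in the right panel Insig2 (0.82) and Soat1 (0.46) lie right of it.

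The promoters of 4 of the 8 genes that fell with lactic acid are shown as examples, to place the values beside sequence. That of Insig2, which rose in low-NaHCO3 medium, is shown too. RefSeq (build GRCm38.p6) gives windows of 300 bases, 250 before to 50 after a start, for 26 of the 31 genes, 35 windows in all. Capitals mark the sterol regulatory element TCACNCCAC, the letters that SREBP is known to bind, and CCAAT, the letters of the factor NF-Y, each on either strand (CCAAT reads ATTGG on the other strand).
Hmgcs1 (chr13:119690101-119690400, plus strand): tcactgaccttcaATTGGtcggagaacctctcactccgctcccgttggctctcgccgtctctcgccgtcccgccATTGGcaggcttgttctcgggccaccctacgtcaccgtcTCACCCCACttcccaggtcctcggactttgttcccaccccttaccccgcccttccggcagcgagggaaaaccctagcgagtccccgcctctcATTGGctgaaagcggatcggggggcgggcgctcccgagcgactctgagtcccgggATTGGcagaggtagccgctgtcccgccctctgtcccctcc
Idi1 (chr13:8885356-8885655, plus strand): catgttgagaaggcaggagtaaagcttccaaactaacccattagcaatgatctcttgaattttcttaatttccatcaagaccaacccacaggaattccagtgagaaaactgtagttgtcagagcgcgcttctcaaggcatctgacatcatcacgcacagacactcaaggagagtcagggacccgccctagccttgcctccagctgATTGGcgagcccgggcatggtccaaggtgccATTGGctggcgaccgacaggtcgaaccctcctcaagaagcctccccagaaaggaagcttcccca
Cyp51 (chr5:4104648-4104947, minus strand): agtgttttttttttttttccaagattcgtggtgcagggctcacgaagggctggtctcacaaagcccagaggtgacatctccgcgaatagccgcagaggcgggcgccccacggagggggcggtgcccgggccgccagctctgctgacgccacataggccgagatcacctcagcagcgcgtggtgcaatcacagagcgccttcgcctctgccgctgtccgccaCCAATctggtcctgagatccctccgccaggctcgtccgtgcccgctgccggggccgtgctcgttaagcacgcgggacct
Insig1 (chr5:28071162-28071461, plus strand): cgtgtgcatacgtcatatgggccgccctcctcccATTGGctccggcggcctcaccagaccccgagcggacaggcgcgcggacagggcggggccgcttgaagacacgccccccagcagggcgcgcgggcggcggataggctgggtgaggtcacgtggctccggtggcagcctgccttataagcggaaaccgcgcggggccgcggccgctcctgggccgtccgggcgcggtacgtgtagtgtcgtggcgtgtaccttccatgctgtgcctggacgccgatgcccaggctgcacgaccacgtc
Insig2 (chr1:121332540-121332839, minus strand, 1 of 3 windows): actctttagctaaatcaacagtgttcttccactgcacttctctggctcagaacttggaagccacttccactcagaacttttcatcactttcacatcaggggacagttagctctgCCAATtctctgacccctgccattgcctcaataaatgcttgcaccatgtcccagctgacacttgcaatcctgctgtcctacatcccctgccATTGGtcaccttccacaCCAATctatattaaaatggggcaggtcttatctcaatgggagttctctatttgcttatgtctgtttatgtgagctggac

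The element TCACNCCAC stood in 1 window of the 35, that of Hmgcs1, and in 1.24% of all 32851 mouse promoter windows. CCAAT stood in 22 windows of 21 genes (62.9%), beside 37.4% of all windows. Of the 3 windows of Insig2 it stood in the 1 shown, and in neither of the others. Among the genes that fell with lactic acid and are not shown, Acat2 held neither TCACNCCAC nor CCAAT. Lss and Sc5d held 1 CCAAT each, and Sqle had no window. Of 3 other motifs searched on both strands, the GC box GGGCGG was in 26 windows of 22 genes (74.3%, beside 35.7% of all) and the E-box CACGTG in 7 windows of 6 genes (20.0%, beside 7.15%). The LXR element DR4, AGGTCA repeated after 4 bases with up to 2 mismatches, was in 1 window, of Dhcr7 (2.86%, beside 3.02%). A match is a description of the letters and not a site.

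Of the 5 genes of the mevalonate steps, 4 fell in low-NaHCO3 medium, 2 with lactic acid and 0 under 15% CO2 by limma. Without control 1 these counts were 3, 2 and 2. Of all genes 35.0%, 1.52% and 0.0649% fell in the same order (40.9%, 7.08% and 1.56% without control 1). Acat2, the cytosolic thiolase that joins acetyl-CoA units (ENSMUSG00000023832), had 38.6, 49.2 and 39.8 TPM in 15% CO2 cells, 37.1, 39.5 and 27.7 TPM in lactic acid cells, 19.5, 19.5 and 18.5 TPM in low-NaHCO3 cells and 54.1, 68.6 and 67.8 TPM in control cells. All 9 treated libraries lay below the 3 controls, and the low-NaHCO3 libraries lay below the other 6 treated ones. Its log2 change was −0.86 ± 0.15, adjusted p = 0.0149 with lactic acid and −1.67 ± 0.15, adjusted p = 6.87e-06 in low-NaHCO3 medium (limma, ± SE), and −0.97 and −1.78 without control 1. Under 15% CO2 it was −0.57 ± 0.15, adjusted p = 0.0933, and −0.68 ± 0.14, adjusted p = 0.0184 without control 1. Of the 50-base stretches of its longest transcript 45.9% also occur in other genes, chiefly Acat3, which had 0.295 to 1.41 TPM, and Tcp1, which had 226 to 355 TPM.

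Hmgcs1, which makes HMG-CoA (ENSMUSG00000093930), had 40.2, 50.6 and 39.4 TPM in 15% CO2 cells, 44.3, 42.2 and 34.9 TPM in lactic acid cells, 54.4, 46.2 and 67.9 TPM in low-NaHCO3 cells and 109, 65.6 and 70.7 TPM in control cells. Lactic acid and 15% CO2 libraries lay below all controls, and 1 low-NaHCO3 library lay above control 2. The log2 change with lactic acid was −0.97 ± 0.20, adjusted p = 0.0283, and −0.74 ± 0.16, adjusted p = 0.0121 without control 1, its highest library. Under 15% CO2 it was called without control 1 (−0.65 ± 0.16, adjusted p = 0.0357). In low-NaHCO3 medium it was −0.51 ± 0.20, adjusted p = 0.0474, but without control 1 it was −0.29 ± 0.16, adjusted p = 0.132 and no longer called. Its low-NaHCO3 call against control was also lost after median-of-ratios scaling and after quantile normalization. Hmgcs1 was the 1 mevalonate gene of the 5 with a higher mean in low-NaHCO3 cells (56.1 ± 11.0 TPM) than in 15% CO2 cells (43.4 ± 6.23 TPM, SD, n = 3 each). Without control 1 it was called higher in low-NaHCO3 cells than in 15% CO2 and lactic acid cells. Of its 50-base stretches 13.6% also occur in another gene model.

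The kinases and the decarboxylase that follow carry mevalonate to isopentenyl diphosphate. Mvk, mevalonate kinase, ran at 12.6 to 14.8 TPM in 15% CO2 cells, 10.5 to 16.2 TPM in lactic acid cells, 5.29 to 7.29 TPM in low-NaHCO3 cells and 17.2 to 20.6 TPM in control cells. Pmvk, phosphomevalonate kinase, ran at 21.2 to 25.7 TPM in 15% CO2 cells, 14.0 to 26.1 TPM in lactic acid cells, 11.1 to 15.4 TPM in low-NaHCO3 cells and 28.9 to 40.0 TPM in control cells. Both fell in low-NaHCO3 medium, by 1.48 ± 0.16 and 1.27 ± 0.21 on the log2 scale (adjusted p = 3.04e-05 and 0.000526), and by 1.56 and 1.15 without control 1, and neither was called under 15% CO2 or lactic acid in either fit. Mvd, the diphosphomevalonate decarboxylase, ran at 11.8 to 18.2 TPM in 15% CO2 cells, 10.5 to 16.4 TPM in lactic acid cells, 13.2 to 16.9 TPM in low-NaHCO3 cells and 16.3 to 20.9 TPM in control cells. Its groups overlapped, and it was called in none of the 3 comparisons with control in either fit (log2 change −0.32 ± 0.19 in low-NaHCO3 medium). After median-of-ratios scaling and after quantile normalization, both without control 1, Mvk was called lower under 15% CO2 and lactic acid. Mvd was called lower in these fits with lactic acid.

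All 3 isoprenoid genes fell in low-NaHCO3 medium on the deposited scale, with and without control 1, beside 35.0% and 40.9% of all genes. After median-of-ratios scaling Ggps1 was not called, and after quantile normalization neither Ggps1 nor Fdps was, which left Idi1; without control 1, Ggps1 was again not called after either scaling. Idi1, which isomerises isopentenyl diphosphate (ENSMUSG00000058258), had 19.8, 24.4 and 16.2 TPM in 15% CO2 cells, 17.1, 16.4 and 16.2 TPM in lactic acid cells, 14.5, 14.1 and 14.8 TPM in low-NaHCO3 cells and 23.5, 32.2 and 32.4 TPM in control cells. The lactic acid and low-NaHCO3 libraries lay below every control, whereas 15% CO2 replicate 2 lay above control 1. The log2 change was −0.78 ± 0.15, adjusted p = 0.0216 with lactic acid and −0.96 ± 0.15, adjusted p = 0.000337 in low-NaHCO3 medium, and −0.53 ± 0.15, adjusted p = 0.13 under 15% CO2. Without control 1 the changes were −0.93 and −1.11, and −0.68 ± 0.13, adjusted p = 0.0122 under 15% CO2. Of its 50-base stretches, 30.5% also occur in other gene models.

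Fdps, farnesyl diphosphate synthase, was low throughout at 1.69 to 3.15 TPM in 15% CO2 cells, 1.49 to 2.60 TPM in lactic acid cells, 1.31 to 1.78 TPM in low-NaHCO3 cells and 2.78 to 4.83 TPM in control cells. It fell in low-NaHCO3 medium (−0.94 ± 0.23, adjusted p = 0.0057, and −1.13 without control 1), and without control 1 under 15% CO2 and lactic acid too (−0.81 and −0.89). The log2(TPM + 1) scale understates changes at such levels. Of the 50-base stretches of Fdps 11.7%, and of those of Ggps1 11.8%, also occur in other genes. Whether shared reads took part in their values was not tested. Ggps1, which makes the geranylgeranyl diphosphate used to anchor proteins in membranes, lay at 29.7 to 34.6 TPM in 15% CO2 cells, 29.4 to 31.1 TPM in lactic acid cells, 21.2 to 21.4 TPM in low-NaHCO3 cells and 25.5 to 47.6 TPM in control cells; control 1 was the highest library, and controls 2 and 3 had 25.5 and 29.8 TPM. It fell in low-NaHCO3 medium by 0.61 ± 0.18 on the log2 scale (adjusted p = 0.0131), and by 0.36 ± 0.086 without control 1.

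Between farnesyl diphosphate and lanosterol the 3 neighbouring steps went different ways in low-NaHCO3 cells. Fdft1, squalene synthase (ENSMUSG00000021273), had 52.2, 59.3 and 51.6 TPM in 15% CO2 cells, 54.9, 57.3 and 49.4 TPM in lactic acid cells, 81.3, 74.1 and 74.5 TPM in low-NaHCO3 cells and 67.5, 63.4 and 66.8 TPM in control cells. The low-NaHCO3 libraries were the highest and lay above all 9 others. Against control the log2 change was 0.21 ± 0.085, adjusted p = 0.0535, and without control 1 it was 0.23 ± 0.087, adjusted p = 0.0367 and called. Of the 50-base stretches of its longest transcript 30.7% occur in other genes, chiefly Ctsb, whose level was 995 to 1034 TPM in low-NaHCO3 cells, 724 to 835 TPM in 15% CO2 cells, 774 to 813 TPM in lactic acid cells and 509 to 673 TPM in control cells. Whether shared reads took part in the Fdft1 values was not tested. After either other scaling without control 1, Fdft1 was called lower under 15% CO2 and with lactic acid than in control cells.

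Sqle, squalene epoxidase, a rate-limiting enzyme of the pathway (ENSMUSG00000022351), went the other way. It had 49.2, 47.4 and 51.6 TPM in 15% CO2 cells, 42.5, 42.6 and 40.8 TPM in lactic acid cells, 19.3, 21.1 and 22.4 TPM in low-NaHCO3 cells and 52.7, 67.0 and 68.7 TPM in control cells. All 9 treated libraries lay below every control, with the low-NaHCO3 libraries at less than any other. The log2 change was −0.56 ± 0.10, adjusted p = 0.0196 with lactic acid and −1.53 ± 0.10, adjusted p = 1.54e-06 in low-NaHCO3 medium, and −0.68 and −1.65 without control 1. Under 15% CO2 it was −0.33 ± 0.10, adjusted p = 0.168, and −0.45 ± 0.075, adjusted p = 0.00714 without control 1. The ratio of Fdft1 to Sqle, looked at after these values were seen, was 4.22, 3.51 and 3.32 in low-NaHCO3 cells, against 1.28, 0.946 and 0.973 in control cells. It was at most 1.35 in the 15% CO2 and lactic acid libraries.

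Lss, which closes the ring to lanosterol (ENSMUSG00000033105), fell under 15% CO2 and lactic acid. It had 13.1, 14.3 and 13.4 TPM in 15% CO2 cells, 14.8, 13.4 and 13.7 TPM in lactic acid cells, 19.0, 18.3 and 20.1 TPM in low-NaHCO3 cells and 19.7, 19.3 and 21.5 TPM in control cells. The 15% CO2 and lactic acid libraries lay below every low-NaHCO3 and control library, and these last groups overlapped. The log2 change was −0.53 ± 0.087, adjusted p = 0.0156 under 15% CO2 and −0.50 ± 0.087, adjusted p = 0.0152 with lactic acid, and −0.55 and −0.52 without control 1. In low-NaHCO3 medium it was −0.07 ± 0.087, adjusted p = 0.503. The differences between the treatments are tested further on.

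**Figure D3:**
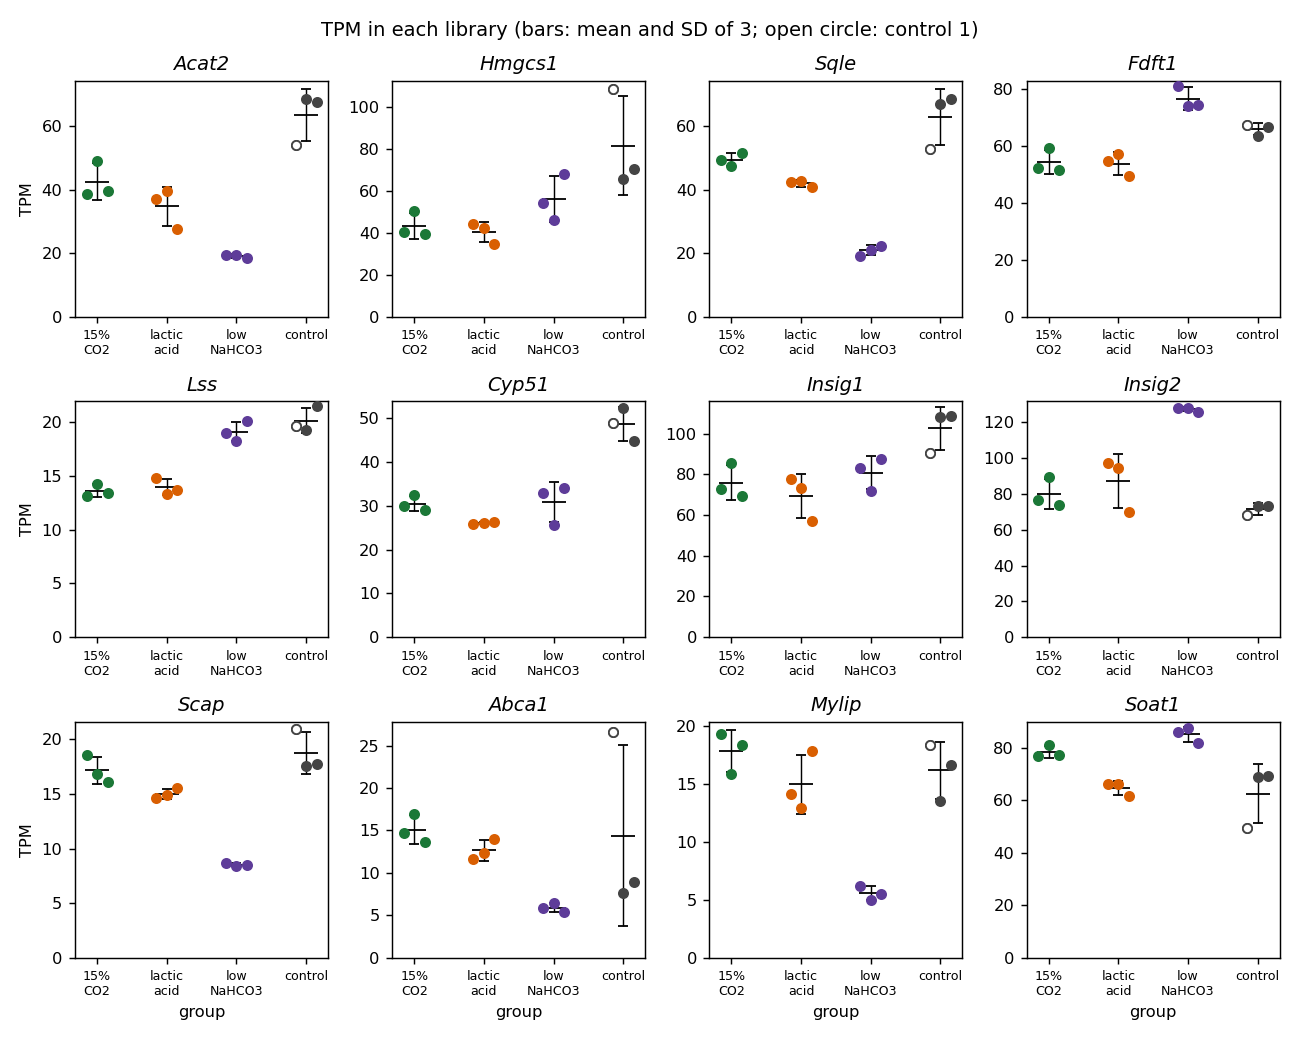
TPM of 12 genes in each library, with bars for the mean and SD of 3 libraries; the open circle is control 1. Fdft1 and Insig2 are highest in low-NaHCO3 cells, Acat2, Sqle, Scap and Mylip lowest, and Lss and Cyp51 are lower under 15% CO2 and lactic acid than in control.

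Among the 8 enzymes from lanosterol to cholesterol, 6 fell in low-NaHCO3 medium, 2 with lactic acid and 1 under 15% CO2. Without control 1 these counts were 6, 6 and 4. The shares of all genes that fell were 35.0%, 1.52% and 0.0649% (40.9%, 7.08% and 1.56% without control 1). Cyp51, lanosterol demethylase (ENSMUSG00000001467), was the member lowered in all 3 with 12 libraries. It had 30.1, 32.4 and 29.0 TPM in 15% CO2 cells, 25.8, 26.2 and 26.4 TPM in lactic acid cells, 33.0, 25.7 and 34.0 TPM in low-NaHCO3 cells and 48.9, 52.5 and 44.9 TPM in control cells. No treated library reached the lowest control. The log2 change was −0.66 ± 0.11, adjusted p = 0.0169 under 15% CO2, −0.87 ± 0.11, adjusted p = 0.00573 under lactic acid and −0.65 ± 0.11, adjusted p = 0.000536 in low-NaHCO3 medium. Without control 1 these were −0.65, −0.87 and −0.64, each called.

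Sc5d, the desaturase of the late pathway (ENSMUSG00000032018), had little spread within groups, with 50.2, 53.8 and 53.6 TPM in 15% CO2 cells, 44.1, 44.8 and 44.7 TPM in lactic acid cells, 28.0, 30.0 and 29.2 TPM in low-NaHCO3 cells and 63.2, 65.9 and 62.5 TPM in control cells. The 4 groups did not overlap. The log2 change was −0.51 ± 0.067, adjusted p = 0.00685 with lactic acid and −1.11 ± 0.067, adjusted p = 7.84e-07 in low-NaHCO3 medium, and −0.52 and −1.12 without control 1. Under 15% CO2 it was −0.28 ± 0.067, adjusted p = 0.0783, and −0.28 ± 0.064, adjusted p = 0.0258 without control 1.

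Msmo1 and Nsdhl, which with Hsd17b7 remove methyl groups from the ring, fell in low-NaHCO3 medium. Msmo1 had the highest mean of the 19 enzymes over the 12 libraries, 73.9 TPM, and ran at 64.3 to 83.2 TPM in 15% CO2 cells, 61.0 to 75.5 TPM in lactic acid cells, 46.7 to 55.5 TPM in low-NaHCO3 cells and 72.3 to 119 TPM in control cells. Its control 1 value of 72.3 TPM lay below the 119 and 112 TPM of the other controls. Its log2 change was −0.94 ± 0.18, adjusted p = 0.0011 in low-NaHCO3 medium (−1.16 without control 1), and without control 1 it was also called under 15% CO2 (−0.66) and lactic acid (−0.71). Nsdhl ran at 37.0 to 40.5 TPM in 15% CO2 cells, 34.1 to 42.9 TPM in lactic acid cells, 20.9 to 25.5 TPM in low-NaHCO3 cells and 44.5 to 52.7 TPM in control cells and behaved likewise, with −1.06 ± 0.11, adjusted p = 2.3e-05 in low-NaHCO3 medium and, without control 1, −1.14 there and −0.44 and −0.43 in the other 2. Hsd17b7 ran at 16.5 to 19.6 TPM in 15% CO2 cells, 16.1 to 18.5 TPM in lactic acid cells, 13.8 to 19.8 TPM in low-NaHCO3 cells and 23.6 to 24.8 TPM in control cells. It fell in low-NaHCO3 medium (−0.52 ± 0.12, adjusted p = 0.00479, and −0.54 without control 1) and, without control 1, with lactic acid (−0.47).

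Tm7sf2, a sterol reductase, was the lowest of this group at 6.58 to 7.75 TPM in 15% CO2 cells, 5.25 to 6.81 TPM in lactic acid cells, 4.18 to 6.09 TPM in low-NaHCO3 cells and 7.89 to 9.53 TPM in control cells. It fell in low-NaHCO3 medium (−0.66 ± 0.15, adjusted p = 0.003, and −0.65 without control 1), a call that quantile normalization removed. Ebp, a sterol isomerase, had 27.2, 33.8 and 23.3 TPM in 15% CO2 cells, 21.4, 22.4 and 16.5 TPM in lactic acid cells, 25.8, 34.0 and 33.4 TPM in low-NaHCO3 cells and 19.7, 28.8 and 32.0 TPM in control cells. Its control 1 value lay below the other controls, and the log2 change in low-NaHCO3 medium was 0.22 ± 0.20, adjusted p = 0.366. With lactic acid it was −0.38 ± 0.20, adjusted p = 0.273, and −0.58 ± 0.17, adjusted p = 0.0438 without control 1. Dhcr7, the reductase of a last step, had 21.7 to 25.2 TPM in 15% CO2 cells, 20.8 to 24.3 TPM in lactic acid cells, 21.5 to 22.3 TPM in low-NaHCO3 cells and 20.1 to 25.3 TPM in control cells and was called in none of the 6 comparisons in either fit. A missed threshold does not show that a level stayed the same.

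Added over the 19 enzymes, the summed level was 582 ± 37.8 TPM in 15% CO2 cells, 529 ± 36.0 TPM in lactic acid cells, 474 ± 25.8 TPM in low-NaHCO3 cells and 781 ± 25.2 TPM in control cells (SD, n = 3). The 9 treated libraries lay between 449 and 624 TPM and the controls between 751 and 796 TPM, so these groups did not overlap. The sum was taken on the deposited scale only, where the median log2 change of all genes in low-NaHCO3 medium was −0.20. What that shift adds to the lower sum was not tested. In bulk RNA, less of a transcript per cell and fewer cells that carry it cannot be told apart.

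Stard4, which carries sterol between membranes, ran at 27.0 to 34.3 TPM in 15% CO2 cells, 21.2 to 32.1 TPM in lactic acid cells, 21.8 to 23.7 TPM in low-NaHCO3 cells and 33.6 to 43.6 TPM in control cells. It fell in low-NaHCO3 medium (−0.78 ± 0.16, adjusted p = 0.00182, and −0.90 without control 1) and, without control 1, with lactic acid (−0.65 ± 0.15, adjusted p = 0.0179).

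The SREBP genes themselves were not called against control with 12 libraries, while in low-NaHCO3 cells Scap fell and Insig2 rose. Srebf2, the factor that drives synthesis (ENSMUSG00000022463), had the highest mean of the 31 genes over the 12 libraries, 105 TPM. It had 100.01, 105 and 93.5 TPM in 15% CO2 cells, 101, 91.1 and 93.8 TPM in lactic acid cells, 123, 113 and 117 TPM in low-NaHCO3 cells and 102, 111 and 115 TPM in control cells. It was called in none of the 3 comparisons with control with 12 libraries, and without control 1 it fell with lactic acid only (−0.24 ± 0.073, adjusted p = 0.0452). After median-of-ratios scaling it was called higher in low-NaHCO3 cells than in control cells, with and without control 1, and after quantile normalization it was not. Srebf1, whose product also drives fatty acid genes, had 20.1, 22.5 and 17.2 TPM in 15% CO2 cells, 20.8, 16.9 and 17.7 TPM in lactic acid cells, 23.5, 24.3 and 19.3 TPM in low-NaHCO3 cells and 21.7, 20.9 and 21.4 TPM in control cells. Its groups overlapped and it was called in none of the 6 comparisons in either fit. Srebf1 depended on the scale. After either other scaling it was called higher in low-NaHCO3 cells than in 15% CO2 and lactic acid cells, with and without control 1; against control it was called higher after quantile normalization, and without control 1 after both scalings.

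Scap, the SREBP escort (ENSMUSG00000032485), had 8.67, 8.40 and 8.46 TPM in low-NaHCO3 cells and 21.0, 17.5 and 17.8 TPM in control cells. All 3 low-NaHCO3 libraries lay below every other library, and the log2 change was −1.05 ± 0.097, adjusted p = 9.31e-06, and −0.97 without control 1. In 15% CO2 cells it ran at 16.1 to 18.6 TPM and in lactic acid cells at 14.6 to 15.5 TPM, with log2 changes of −0.12 ± 0.097 and −0.30 ± 0.097 that were not called. Of its 50-base stretches 13.1% also occur in another gene model.

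Insig1, an SREBP target that retains SCAP (ENSMUSG00000045294), had 72.6, 85.7 and 69.5 TPM in 15% CO2 cells, 77.8, 73.4 and 57.0 TPM in lactic acid cells, 83.0, 72.0 and 87.5 TPM in low-NaHCO3 cells and 90.5, 108 and 109 TPM in control cells. Every treated library lay below every control. Its log2 change was −0.56 ± 0.14, adjusted p = 0.0451 with lactic acid, a call lost when any library other than control 1 was left out. Under 15% CO2 it was −0.43 ± 0.14, adjusted p = 0.167 and in low-NaHCO3 medium −0.34 ± 0.14, adjusted p = 0.0527, and all 3 were called without control 1 (−0.52, −0.65 and −0.43).

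Insig2, its relative, which is not driven by SREBP in the same way (ENSMUSG00000003721), ran opposite. It had 76.4, 89.3 and 73.8 TPM in 15% CO2 cells, 97.1, 94.7 and 69.7 TPM in lactic acid cells, 128, 128 and 126 TPM in low-NaHCO3 cells and 68.0, 73.4 and 73.5 TPM in control cells. The low-NaHCO3 libraries lay within 126 to 128 TPM, above every other library. The log2 change was 0.82 ± 0.12, adjusted p = 0.000232 in low-NaHCO3 medium (0.79 without control 1), and 0.15 ± 0.12 and 0.27 ± 0.12 under 15% CO2 and lactic acid, not called. The ratio of Insig2 to Insig1 in a library was 1.05, 1.04 and 1.06 under 15% CO2, 1.25, 1.29 and 1.22 with lactic acid, 1.54, 1.78 and 1.44 with low NaHCO3 and 0.751, 0.677 and 0.675 in control. The 4 groups did not overlap in this ratio, which was picked after the values of both genes were seen.

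**Figure D4:**
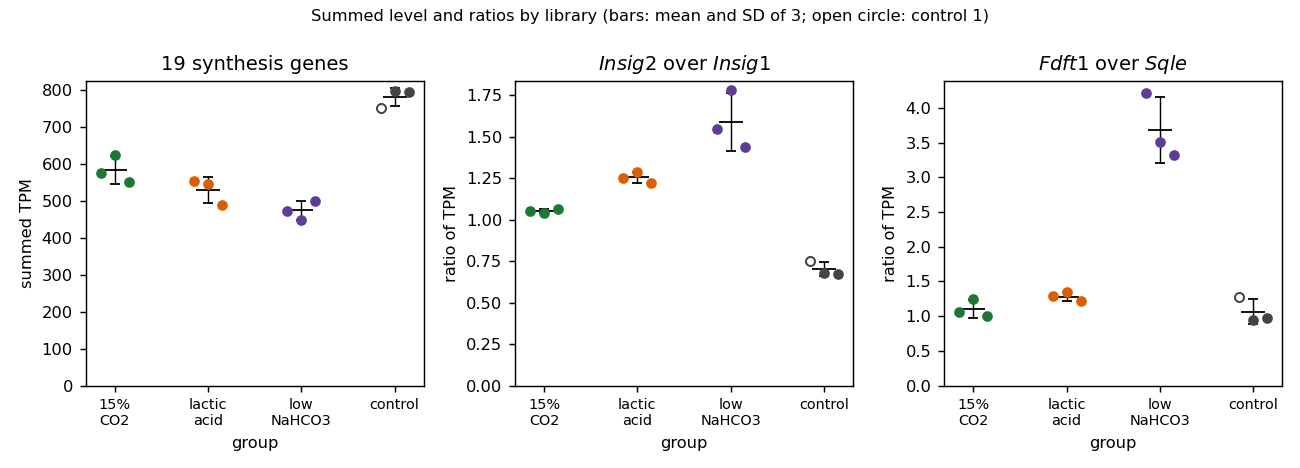
Summed TPM of the 19 enzymes (left), the ratio of Insig2 to Insig1 (middle) and the ratio of Fdft1 to Sqle (right) in each library, with bars for the mean and SD of 3; the open circle is control 1. The sum is lower in all 9 treated libraries, the first ratio lies above 1 in all 9, and the second lies above 3 only in low-NaHCO3 cells.

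On the export side, Abca1 was the gene whose result turned on control 1. Abca1, the pump that loads cholesterol onto apolipoproteins (ENSMUSG00000015243), had 14.7, 16.9 and 13.6 TPM in 15% CO2 cells, 11.6, 12.4 and 14.0 TPM in lactic acid cells, 5.87, 6.39 and 5.36 TPM in low-NaHCO3 cells and 26.7, 7.66 and 8.90 TPM in control cells. Control 1 was the highest of all libraries and controls 2 and 3 lay below every 15% CO2 and lactic acid library. With 12 libraries the log2 change was 0.27 ± 0.34, adjusted p = 0.714 under 15% CO2 and 0.03 ± 0.34, adjusted p = 0.963 with lactic acid. Without control 1 it rose in both, by 0.79 ± 0.12, adjusted p = 0.00468 and 0.56 ± 0.12, adjusted p = 0.0124. In low-NaHCO3 medium it fell in both fits (−0.96 ± 0.34, adjusted p = 0.0329, and −0.43 ± 0.12, adjusted p = 0.00882 without control 1), but after median-of-ratios scaling or quantile normalization it was not called in either.

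Abcg1, a second export pump, had 0.236, 0.609 and 0.577 TPM in 15% CO2 cells, 0.838, 0.792 and 0.540 TPM in lactic acid cells, 0.255, 0.171 and 0.146 TPM in low-NaHCO3 cells and 16.7, 0.240 and 0.304 TPM in control cells. Control 1 alone was above 1 TPM, and the gene was not tested. Nr1h3, the receptor LXR alpha, was above 1 TPM in 3 libraries, 1 of them control 1 at 2.65 TPM, and was not called. Nr1h2, LXR beta, was the expressed one of the pair at 53.0 to 64.2 TPM in 15% CO2 cells, 52.3 to 61.0 TPM in lactic acid cells, 50.8 to 53.1 TPM in low-NaHCO3 cells and 45.9 to 53.1 TPM in control cells. Its log2 change was 0.26 ± 0.094, adjusted p = 0.229 by limma under 15% CO2, and it was called in none of the 6 comparisons in either fit. After median-of-ratios scaling with 12 libraries it was called higher in low-NaHCO3 cells than in control cells.

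Mylip, the LXR target that marks lipoprotein receptors for degradation (ENSMUSG00000038175), had 6.16, 4.95 and 5.53 TPM in low-NaHCO3 cells and 18.3, 13.5 and 16.6 TPM in control cells. The low-NaHCO3 libraries lay below all 9 others and the log2 change was −1.38 ± 0.15, adjusted p = 2.57e-05, and −1.29 without control 1. In 15% CO2 and lactic acid cells it ran at 15.8 to 19.3 and 12.9 to 17.8 TPM, not called. Soat1, which esterifies cholesterol for storage (ENSMUSG00000026600), had 76.9, 80.9 and 77.4 TPM in 15% CO2 cells, 66.3, 66.0 and 61.4 TPM in lactic acid cells, 86.0, 87.4 and 81.9 TPM in low-NaHCO3 cells and 49.5, 68.7 and 69.1 TPM in control cells. It rose in low-NaHCO3 medium (0.46 ± 0.12, adjusted p = 0.00646), where all 3 libraries lay above every other, and without control 1, its lowest library, the change was 0.30 ± 0.063, adjusted p = 0.00161. Under 15% CO2 it was 0.34 ± 0.12, adjusted p = 0.196.

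Between lactic acid and 15% CO2 few differences passed the test. For lactic acid against 15% CO2, none of the 30 was called by limma, while 0.170% of all genes fell and 0.0325% rose. At an unadjusted p under 0.05 there were 4, all lower with lactic acid, beside 1027 of all 12326 genes in either direction. The 95% intervals of the differences together ran from −0.98 to 0.76 on the log2 scale, so differences of that size are not shown to be absent. Without control 1, Sc5d (−0.23 ± 0.058, adjusted p = 0.0457) and Soat1 (−0.28 ± 0.057, adjusted p = 0.0214) were lower with lactic acid, 2 of 29, beside 2.96% lower and 1.64% higher of all genes.

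Between low-NaHCO3 medium and each of the other treatments, genes of the pathway were called in both directions, as were many of all genes. Against 15% CO2, 13 of 30 genes were lower and 4 higher (Fdft1, Lss, Srebf2 and Insig2), while 33.7% of all genes were lower and 17.5% higher. Without control 1 it was 14 and 5 of 29, beside 45.5% and 23.8%. Against lactic acid, 10 of 30 were lower and 6 higher (the same 4, Ebp and Soat1), beside 30.8% and 17.8% of all genes. Without control 1 it was 11 and 7 of 29, beside 42.9% and 24.4%.

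The split depended on the scale. After median-of-ratios scaling 9 genes were lower and 7 higher against 15% CO2, and 7 lower and 10 higher against lactic acid; after quantile normalization it was 8 and 4, and 8 and 7. Of all genes, 23.9% were lower and 28.9% higher against 15% CO2 and 22.7% and 27.8% against lactic acid after the first, and 21.6% and 21.2%, and 20.5% and 20.1%, after the second. Without control 1 the median-of-ratios split was 11 and 9 against 15% CO2 and 10 and 10 against lactic acid, and the quantile split 11 and 5, and 10 and 11, beside 34.5% and 36.5%, 33.9% and 35.9%, 33.3% and 31.8%, and 32.9% and 30.6% of all genes in the same order. In each of these fits Acat2, Mvk, Sqle, Nsdhl, Sc5d, Scap and Mylip were among the lower genes of both comparisons, and Fdft1, Lss and Insig2 among the higher.

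The largest of these differences were in Mylip, −1.52 ± 0.15, adjusted p = 1.46e-05 against 15% CO2 and −1.28 ± 0.15, adjusted p = 5.44e-05 against lactic acid. Sqle differed by −1.20 ± 0.10, adjusted p = 6.7e-06 and −0.97 ± 0.10, adjusted p = 3.16e-05, and Acat2 by −1.10 ± 0.15, adjusted p = 0.000111 and −0.81 ± 0.15, adjusted p = 0.000972. Mvk, with −0.996 ± 0.16 and −1.03 ± 0.16, and Scap, with −0.93 ± 0.097 and −0.75 ± 0.097, were also lower in both. Upwards, Insig2 differed by 0.67 ± 0.12, adjusted p = 0.000927 and 0.56 ± 0.12, adjusted p = 0.00332, Fdft1 by 0.49 ± 0.085, adjusted p = 0.000714 and 0.50 ± 0.085, adjusted p = 0.000666 and Lss by 0.46 ± 0.087, adjusted p = 0.00117 and 0.43 ± 0.087, adjusted p = 0.0021. Sqle and Fdft1, enzymes of successive steps, differed from the other treatments in opposite directions. Cyp51, which fell in each treatment against control, had 0.01 ± 0.11 and 0.23 ± 0.11, neither called; after either other scaling it was called higher than with lactic acid, with and without control 1.

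**Figure D5:**
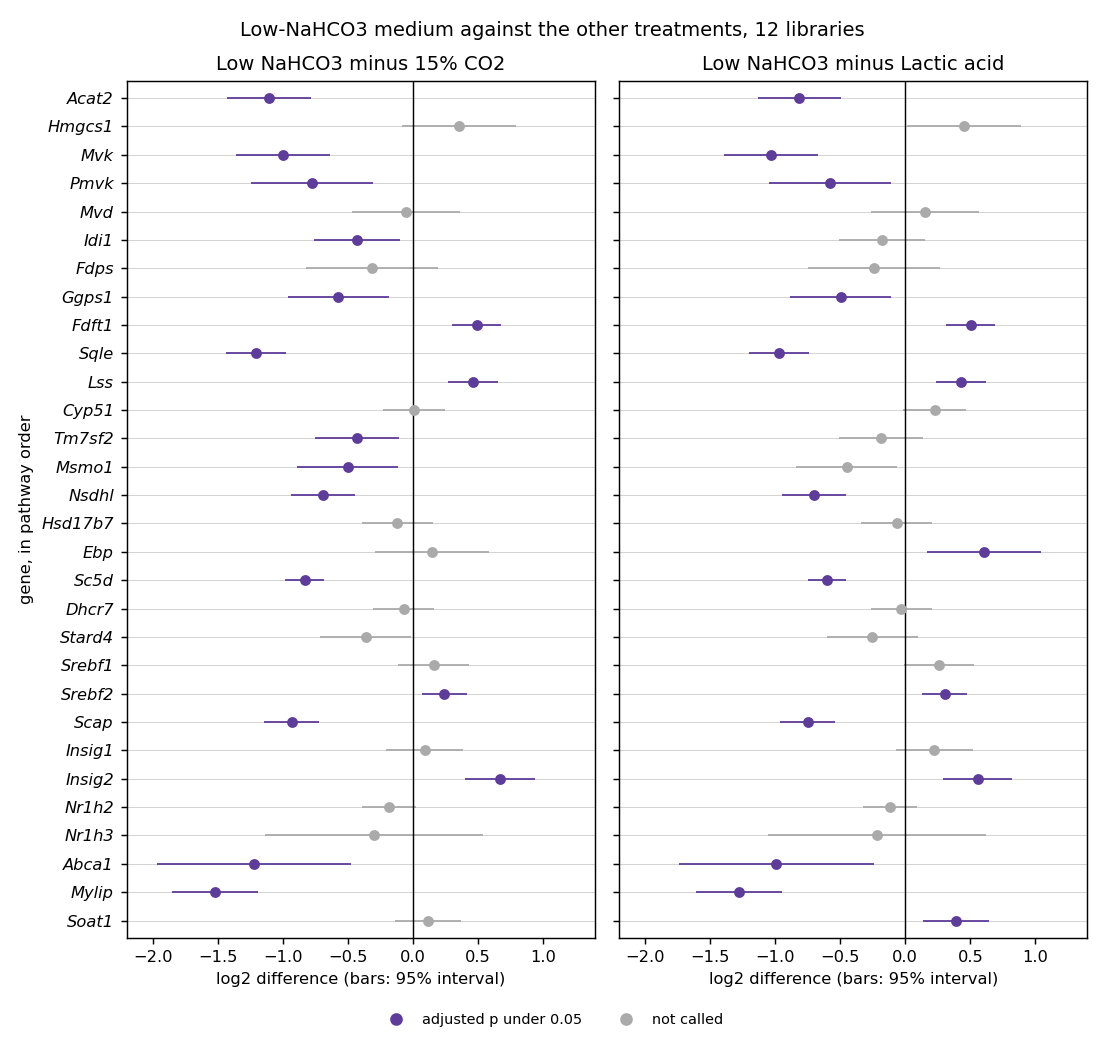
Log2 difference of each gene tested in low-NaHCO3 medium against 15% CO2 (left) and against lactic acid (right), with 95% intervals, from limma with 12 libraries; coloured points passed the threshold. Sqle (−1.20 and −0.97) lies to the left in both panels, and Fdft1 (0.49 and 0.50), Lss (0.46 and 0.43) and Insig2 (0.67 and 0.56) to the right.

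A further 53 genes of sterol and isoprenoid use were listed in 5 groups, of which 50 were tested. Under 15% CO2 limma called 0 of the 50 against control, while 0.0649% of all genes fell and 1.28% rose. At an unadjusted p under 0.05 there were 8, beside 1908 of all 12326 genes. Without control 1 limma called 1 lower and 4 higher, beside 1.56% and 5.82%. With lactic acid 2 fell and 2 rose, beside 1.52% and 2.47% of all genes, and without control 1 it was 3 and 11, beside 7.08% and 9.05%. In low-NaHCO3 medium 13 fell and 15 rose, beside 35.0% and 19.8% of all genes, and without control 1 it was 13 and 18, beside 40.9% and 22.7%. The median log2 change there was −0.03, and 0.03 without control 1. Each call of these further genes named with a value was also made without control 1.

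In the isoprenoid branch 5 of 13 fell and 4 rose in low-NaHCO3 medium, beside 35.0% and 19.8% of all genes. Without control 1 it was again 5 and 4, beside 40.9% and 22.7%. Dolk, which makes dolichol phosphate, had 11.4, 13.1 and 9.77 TPM in low-NaHCO3 cells and 25.1, 36.0 and 33.7 TPM in control cells, and fell (−1.39 ± 0.19, adjusted p = 0.000147). It also fell with lactic acid (−0.79 ± 0.19, adjusted p = 0.0478). The catalytic subunits of Rab prenylation went apart, Rabggta with −1.07 ± 0.10 and Rabggtb with 0.65 ± 0.17. Of 9 genes for SREBP processing and sterol-regulated degradation 2 fell and 1 rose in low-NaHCO3 medium, beside the same shares of all genes. The counts stayed at 2 and 1 without control 1. Mbtps1, the site-1 protease that first cleaves SREBP, had 29.3, 35.5 and 27.7 TPM in low-NaHCO3 cells and 54.2, 66.2 and 66.7 TPM in control cells (−0.99 ± 0.12, adjusted p = 7.11e-05). Rnf145, a ubiquitin ligase, fell (−0.69 ± 0.099), and Sec24c, a COPII coat protein, rose (0.64 ± 0.085). Mbtps2, the site-2 protease, rose with lactic acid (0.50 ± 0.12, adjusted p = 0.0401).

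Of 15 sterol carrier and lysosomal genes 3 fell and 8 rose in low-NaHCO3 medium, beside 35.0% and 19.8% of all genes. Without control 1, 3 fell and 10 rose in low-NaHCO3 medium, beside 40.9% and 22.7%. Npc2, the lysosomal carrier, had 359, 354 and 364 TPM there and 127, 201 and 213 TPM in control cells (1.02 ± 0.20, adjusted p = 0.00123, and 0.79 ± 0.15 without control 1). Tmem97, a sterol-regulated membrane protein, fell in low-NaHCO3 medium (−0.77 ± 0.18) and with lactic acid (−0.71 ± 0.18). Gramd1b had 69.8 TPM in control 1, against 15.6 and 14.2 TPM in the other controls, and its log2 change in low-NaHCO3 medium was −1.78 ± 0.45 with 12 libraries and −1.06 ± 0.10 without control 1. Among the lipoprotein receptors, in low-NaHCO3 medium Lrp8 fell (−0.90 ± 0.11) and Scarb1 rose (0.31 ± 0.093). Vldlr, a lipoprotein receptor, rose with lactic acid, to 69.2, 68.2 and 61.3 TPM in lactic acid cells, against 35.6, 43.3 and 43.1 TPM in control cells (0.69 ± 0.10, adjusted p = 0.0106). Among 7 tested genes for oxysterols, esters and export, Nceh1, a cholesteryl ester hydrolase, fell in low-NaHCO3 medium (−1.24 ± 0.082, adjusted p = 1.32e-06), as did Abcg4, a pump with 20.0 TPM in control 1 and 4.11 and 3.97 TPM in the others (−1.93 ± 0.44, and −1.24 ± 0.14 without control 1).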

How the data were processed

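Total RNA of C8-D1A cells was sequenced in 12 libraries, 4 groups of 3. The submitters' processing notes name fastp 0.22.0, HISAT2 2.1.0 and the build GRCm39. The deposited table gives TPM, made by the authors, for 21959 Ensembl genes. How reads were counted, with which annotation and whether by strand, is not given in the sources used here. Every column adds up to 1000000 and no counts are listed, so depth is unknown and no counting intervals are given; 14531 to 17319 genes were above 0 in a library. Labels reading CO3 and CO4 for some replicates were taken as copying errors. Symbols came from GENCODE M21, an older build, for 21851 IDs (108 without, and 26 repeated symbols kept once). Sequence shared with other genes was counted on its transcripts, and promoter windows are from RefSeq.

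Values were transformed as log2(TPM + 1), which understates changes of low genes. A gene was tested where 3 or more libraries, of whatever group, had 1 TPM or more, which left 12326 genes (12226 without control 1), with a group-means model in limma 3.58.1 (R 4.3.3, eBayes with a trend), two-sided, Benjamini-Hochberg within each of 6 comparisons over all genes tested, threshold 0.05. The same code was checked on data simulated from the libraries other than control 1, so no library like control 1 was simulated. All 31 members are named. Values in every library are given for members called in at least 2 comparisons with control in both fits, members that went against their group, and the Insig, Srebf, Abca1 and Abcg1 genes, and chosen after their values were seen for Scap, Mylip and further genes. Up to 3 further genes per list and comparison, by largest change called in both fits, were eligible for naming. The members and lists were chosen with earlier results of these data known. Not every gene of the pathway is reported here. Alternatives were other scalings, pseudocounts and filters, fits of 2 groups, a replicate block and leaving out libraries.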

Additional observations from a re-analysis of the deposited data

How the results depend on the processing

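Over 35 alternative settings, 35 of the 63 calls of single genes were kept in each. Results for 1 gene reversed: Tm7sf2 in low-NaHCO3 medium against 15% CO2 had a log2 difference of 0.13 after quantile normalization (adjusted p = 0.564 by limma) and 0.13 with control 1 also left out (adjusted p = 0.316), and against lactic acid 0.31 in that last fit (adjusted p = 0.0324). With 1 library left out, the genes called numbered 0 to 12 for 15% CO2 against control, 3 to 16 for lactic acid, 18 to 22 for low-NaHCO3 medium, 0 to 2 for lactic acid against 15% CO2, 12 to 19 for low-NaHCO3 medium against 15% CO2 and 13 to 18 against lactic acid. Of these, 12, 16, 21, 2, 19 and 18 were without control 1; without control 2 the first 2 were 0 and 5. For 15% CO2 the count was 0 without control 2 (14 genes at an unadjusted p under 0.05) and without each CO2 library in turn. With control 1 and 1 more library left out, an alternative chosen in part after seeing the data, the first 2 ran from 1 to 17 and 6 to 17, at 1 and 6 without control 2, 2 and 7 without control 3, and 7 and 13 without CO2 replicate 1. A lone control was taken to vary like the other groups.

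For 15% CO2 against control the count of 2 became 1 after quantile normalization and 0 in a fit of the 2 groups alone. For lactic acid against control the count of 8 became 0 in a fit of the 2 groups alone. Without control 1, the counts for 15% CO2 and lactic acid were 11 and 16 with a pseudocount of 0.1, 9 and 13 with no filter on low values, 15 and 20 after median-of-ratios scaling, 17 and 19 after quantile normalization, and 13 for 15% CO2 in a fit of the 2 groups alone. For lactic acid against 15% CO2, where the count with 12 libraries was 0, it was 2 without control 1, and with control 1 also left out it was 2 with a pseudocount of 0.1 or no filter, 1 after either scaling and 0 in a fit of the 2 groups alone. The cause of these shifts was not tested. The 3 comparisons of low-NaHCO3 medium kept their counts within 1.5 times in each setting.

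Whether replicate numbers pair the libraries is not settled. The correlation of deviations of same-numbered libraries ran from −0.14 to 0.46 over 18 pairs. It was highest between 15% CO2 and lactic acid, at 0.46 for replicate 3 and 0.31 for replicate 2. Deviations from means of 3 libraries cannot decide it. With the number as a replicate block, 1 gene, Lss, was called for 15% CO2 (Cyp51 was lost) and 7 for lactic acid against control, and without control 1 it was 13 and 19, with 1 for lactic acid against 15% CO2. Depth is unknown, so what it limits could not be given. Genes near 1 TPM, such as Nr1h3, Abcg1 and Fdps, are the least certain.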
